A study of Mustela putorius furo with 7 samples.

Results

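The regions described here were open in every culture. They are the 23534 of 95129 accessible regions, 24.7%, that overlapped by at least 1 bp a called peak in each of 7 peak lists and were less than 1500 bp wide. The members were therefore selected on peak calls made from the same libraries in which their signal was measured. Membership needed a peak in every CF and every WT list, which favours regions that no culture lacked, so the counts of changed members are a description of shared open chromatin and not a test of it. A further 1609 regions had a peak in all 7 lists but were 1500 bp or wider and were left out.

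The assay was bulk ATAC-seq, which uses a transposase to place adapters where DNA is not wrapped tightly in nucleosomes. The cultures were polarized ferret pancreatic ductal epithelia (PDE), 3 of genotype CFTR KO/KO (CF) and 4 WT. All came from ferrets aged 1 to 3 days, had been passaged 10 times and had differentiated at an air-liquid interface over 14 days. Each library started from roughly 50000 cells, with 12 cycles of PCR and 150 bp paired-end reads. The labels number 3 CF and 4 WT donors while the methods of the study give the same number for each genotype, so the p-values given here rest on the spread between libraries, which may in part be technical.

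CFTR is the apical chloride and bicarbonate channel through which ductal epithelium hydrates and alkalinises pancreatic juice, and its loss causes cystic fibrosis. In an epithelium, regions accessible in all samples typically include promoters of broadly used genes and binding sites of architectural proteins, whereas distal enhancers vary more between cell states. The deposited files identify regions by their position on scaffolds of the ferret assembly MusPutFur1.0 and pair none with a gene, so the members are described by position and no gene is named. Their identity as ductal was therefore not checked against marker genes.

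The recovered reads in regions ran from 3226534 to 11047724 per library, and CF libraries were deeper than every WT library. The columns of the signal matrix and the peak lists carry the same names, but over the members only 1 of 7 columns followed the enrichment of the list of its own number best. The best list ran in reverse order within each genotype. Columns CF1, CF2 and CF3 followed lists CF3, CF2 and CF1 best. Columns WT1, WT2, WT3 and WT4 followed lists WT4, WT3, WT2 and WT1 best, with correlations of 0.49 to 0.59 over the 7 columns. Columns and lists are therefore named separately, and nothing below joins them by number. Library numbers below are those of the matrix columns. In every library each member held at least 5 reads, and 22851 members averaged 30 reads or more. By contrast, 34.8% of the other regions had a library at 1 read, the lowest value in the matrix. Members had a median width of 837 bp (interquartile range 661 to 1053 bp) and lay on 995 of 1895 scaffolds.

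Shared regions changed less often toward opening than the rest of the accessible genome, while closing was about as frequent. The signal of each region was fitted for genotype in limma over all 95129 regions, as log2(signal + 1), and a call required a log2 change past 1 and a p under 0.05 after Benjamini-Hochberg adjustment. Of the members, 210 (0.892%) opened in CF, against 4.31% of all regions. A further 1663 members (7.07%) closed in CF, against 6.26% of all regions, a share near the background. Closed regions thus made up 88.8% of the called members and 52.4% of the called regions outside them. Among regions with a peak in 6 lists, 3.61% opened and 6.02% closed. Among the wider regions with a peak in all 7 lists, 0.746% opened and 2.67% closed, so few openings were not particular to the members.

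**Figure D1:**
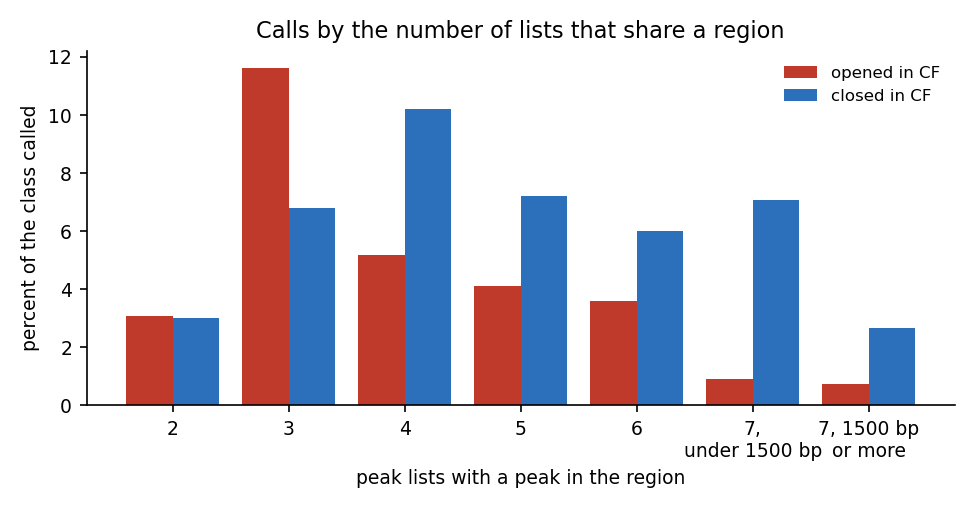
Percent of regions called opened (red) or closed (blue) in CF, by the number of peak lists that hold a peak in the region. Opened regions make up 3.08% of the regions in 2 lists, 11.6% in 3 lists and 0.892% of the narrow regions in all 7, and closed regions make up 3.00% in 2 lists, 10.2% in 4 lists and 7.07% of the narrow regions in 7. With 3 CF and 4 WT lists, regions with peaks in every CF list alone fall at 3 lists. Those with peaks in every WT list alone fall at 4 lists, so the bars there depend on the group sizes.

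The split between opening and closing depended on how the libraries were scaled. With the deposited scaling the median change of members was −0.17 on the log2 scale, against 0.03 over all regions, and 65.9% of members were lower in CF against 48.2% of all regions. Scaling by library size alone gave 755 opened and 695 closed members, 47.9% of calls closed, and a median change of 0.19. Upper-quartile scaling gave 420 and 1076 (71.9% closed), centring each library on the median of the members gave 490 and 965 (66.3% closed), and cyclic loess gave 355 and 1177 (76.8% closed). Under each scaling of the limma values by a single factor per library, the median of members lay 0.19 to 0.20 below that of all regions. Such a factor shifts every region alike, apart from the pseudocount, so this narrow range was set in advance and shows no stability. The median of members lay 0.13 below in edgeR and in DESeq2 on the recovered reads. It lay 0.11 below with all regions limited to those of at least 30 reads on average. Under cyclic loess, which is set separately along the range of signal, it lay 0.05 below. Directions below are those of the deposited scaling.

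**Figure D2:**
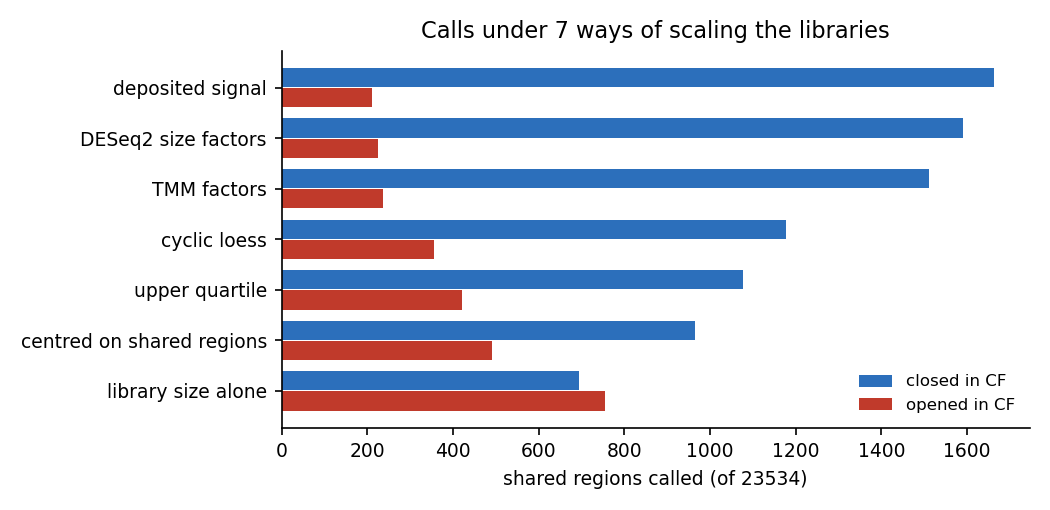
Number of the 23534 shared regions called closed (blue) or opened (red) in CF under 7 scalings of the same libraries. Closed regions outnumber opened ones under 6 of them, from 1663 against 210 with the deposited signal to 965 against 490 with libraries centred on the shared regions, and scaling by library size alone gives 695 against 755.

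The changes at shared regions were graded and mostly small. Their log2 changes ran from −3.76 to 2.73, and the middle 90% of them lay between −1.21 and 0.56. Of the 23534 members, only 135 closed ones fell past 2 on the log2 scale and only 1 opened one rose past it. Of the 71595 other regions, 2683 and 2707 did. Changes from −3 to −2, called or not, made up 0.544% of members and 3.33% of the other regions. Those from 2 to 3 made up 0.00425% and 3.84%. Since membership needed a peak in every list, this contrast is a description and not a test. At an adjusted p under 0.05 with no threshold on size, 2892 members (12.3%) passed, against 11.9% of all regions. Of these, 383 (1.63%) were higher in CF, with 4.59% over all regions, and 2509 (10.7%) were lower, with 7.29% over all regions. A change of less than 2-fold accounted for 1019 of the members that passed, 35.2%, of which 173 were higher and 846 lower. Outside the members the same was true of 229 of 8412, or 2.72%. This count rested on the mean trend in limma, and without the trend 0 of the 1009 members that passed changed by less than 2-fold. With reads thinned to the shallowest library there were 468 such members, and with limma-voom 1899. Leaving out CF1, CF2 or CF3 left 131, 235 and 114, and leaving out WT2 left 425. The members were read more deeply, with a median standard error of the log2 change of 0.28 against 0.61 elsewhere, and the smallest change that passed among them was 0.54.

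**Figure D3:**
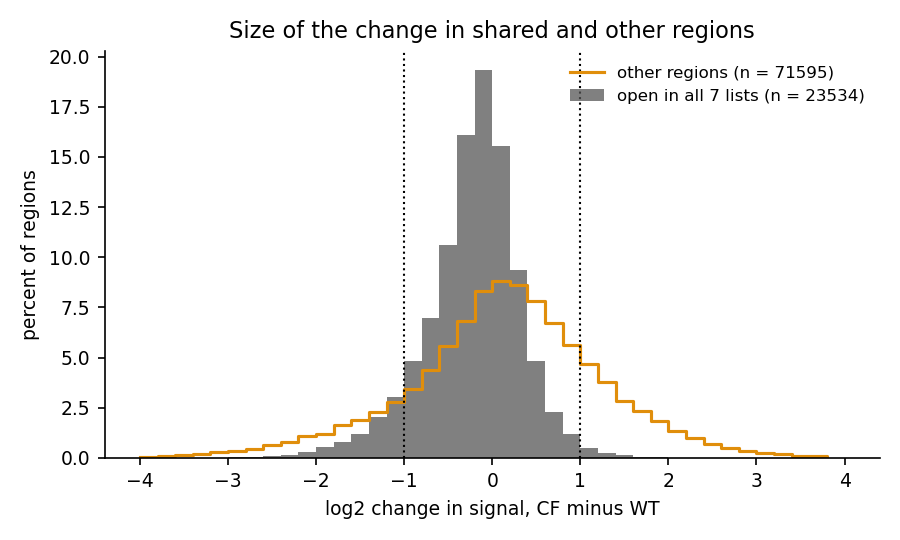
Distribution of the log2 change in signal, CF minus WT, for the 23534 shared regions (grey bars) and the 71595 other regions (orange line), with dotted lines at a 2-fold change either way. The shared regions are concentrated near their median of −0.17, with a longer lower tail, and the other regions spread further on both sides of their median of 0.17.

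Of the 20642 members that did not pass, the data bounded most but not all. Over all members the 95% confidence interval of the change lay wholly within 2-fold in 13478 (57.3%), against 19.5% of all regions. Of the members that did not pass, 13462 were bounded in this way and 7180 were not, so for the latter a 2-fold change was neither called nor placed outside the interval. The intervals were not adjusted for the number of regions.

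Separation of the libraries, counted on the same scaled signal, had the same lean toward lower signal and is no separate support for it. Membership needed a peak in each of 4 WT lists, of 48417 to 89157 peaks, and 3 CF lists, of 79014 to 104397. The part of this rule in the lean was not tested. The 3 CF libraries all lay below the 4 WT libraries in 4584 members (19.5%), against 12.8% of all regions, and all lay above them in 1085 (4.61%), against 11.5%. Of the called members, 1610 of the 1663 closed and 206 of the 210 opened were separated in this way. The spread within a genotype was smaller in CF, where the median SD of the log2 signal of a member was 0.22, than in WT, where it was 0.37, and the WT SD was the larger in 77.0% of members. The CF libraries were also deeper, with a median of 114 to 162 reads per member against 38 to 119 in WT libraries. The part of depth in this spread was not tested. In bulk samples fewer cells with a region open and a smaller opening in each cell cannot be told apart.

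The closed regions with the smallest adjusted p lost most of a substantial WT signal. A called peak in every CF list was required of all members, so its presence is no trait of these regions. The first, at GL897287:158088-159344, had a normalised signal of 41.6, 31.3 and 34.3 in the CF libraries and of 462, 489, 520 and 499 in the WT libraries. The groups lay far apart, and within each the libraries were close. The change was −3.76 ± 0.21 (SE) on the log2 scale with an adjusted p of 1.33e-09 in limma, the largest fall of any member.

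The second, at GL896912:16564794-16566022, had signals of 27.4, 25.4 and 28.1 in CF and of 251, 266, 363 and 300 in WT. Its change was −3.39 ± 0.24 with an adjusted p of 2.90e-08 in limma. Closed region 3, at GL896902:11860303-11861216, had 24.3, 22.4 and 19.7 in CF and 192, 292, 354 and 258 in WT. Its change was −3.54 ± 0.27, and at both loci every CF library lay far below every WT library. At closed regions 1 to 3 the peak called in each CF list had a fold enrichment over background of at least 3.68.

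Closed regions 5 and 6 were neighbours on the short scaffold GL898092, at 1428-2400 and 1-1037. The former had signals of 210, 151 and 127 in CF and of 1708, 888, 1925 and 1091 in WT, a change of −3.06 ± 0.24. The latter had 209, 78.3 and 90.5 in CF and 1795, 927, 2184 and 1148 in WT, a change of −3.64 ± 0.30. In both, libraries WT1 and WT3 were the highest and WT2 the lowest. Peak enrichment at closed region 5 overlapped between genotypes, at 5.25 to 6.09 in the CF lists and 5.83 to 6.43 in the WT lists. At closed region 6 it did not, at 3.73 to 4.60 and 5.71 to 6.24. Closed region 7, on the short scaffold GL898500 at 54-477, had the same WT1 and WT3 libraries on top, with signals of 426 and 412 against 245 and 268 in the other WT libraries and 23.0 to 50.2 in CF.

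Closed regions 4, 8, 9 and 10 were at GL897015:1829585-1830677, GL896898:28598265-28599193, GL896998:1610029-1611268 and GL896959:721561-722774. Their changes were −2.86, −2.99, −2.65 and −2.34. The last of these fell least, from signals of 335 to 418 in WT to 67.9 to 87.8 in CF, with no overlap between the groups.

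Opened members rose by less. The first, at GL896948:3123676-3124106, was strong in all cultures, with signals of 1498, 1456 and 1443 in CF and of 603, 303, 338 and 310 in WT. Library WT1 lay apart from the other WT libraries but well below every CF library. The change was 1.98 ± 0.21 with an adjusted p of 5.58e-06 in limma.

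The largest rise was that of opened region 5, at GL897134:2393615-2394382, where CF signals were 171, 151 and 128 and WT signals 23.5, 13.3, 27.7 and 25.1. It was the only member that rose past 2 on the log2 scale, by 2.73 ± 0.34. The lowest library held 9 reads there, and the standard error was larger than at the first opened region.

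The second, at GL896966:4923814-4924316, had 434, 389 and 415 in CF and 154, 110, 101 and 77.1 in WT, a change of 1.93 ± 0.23. Opened region 6, at GL897141:1813088-1814029, was among the strongest of the group, with 1238, 1279 and 1280 in CF and 564, 422, 501 and 515 in WT. The rise there was 1.34 ± 0.17, the smallest among the 10 leading opened regions. The other 6 were at GL896984:1542662-1543646, GL897206:1136141-1136514, GL896898:44291839-44292560, GL897078:2720939-2721913, GL897011:4819931-4820322 and GL896931:3478893-3479772, and rose by between 1.60 and 1.97. Separation of the libraries was part of the rule by which these 10 and the 10 closed regions were named.

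**Figure D4:**
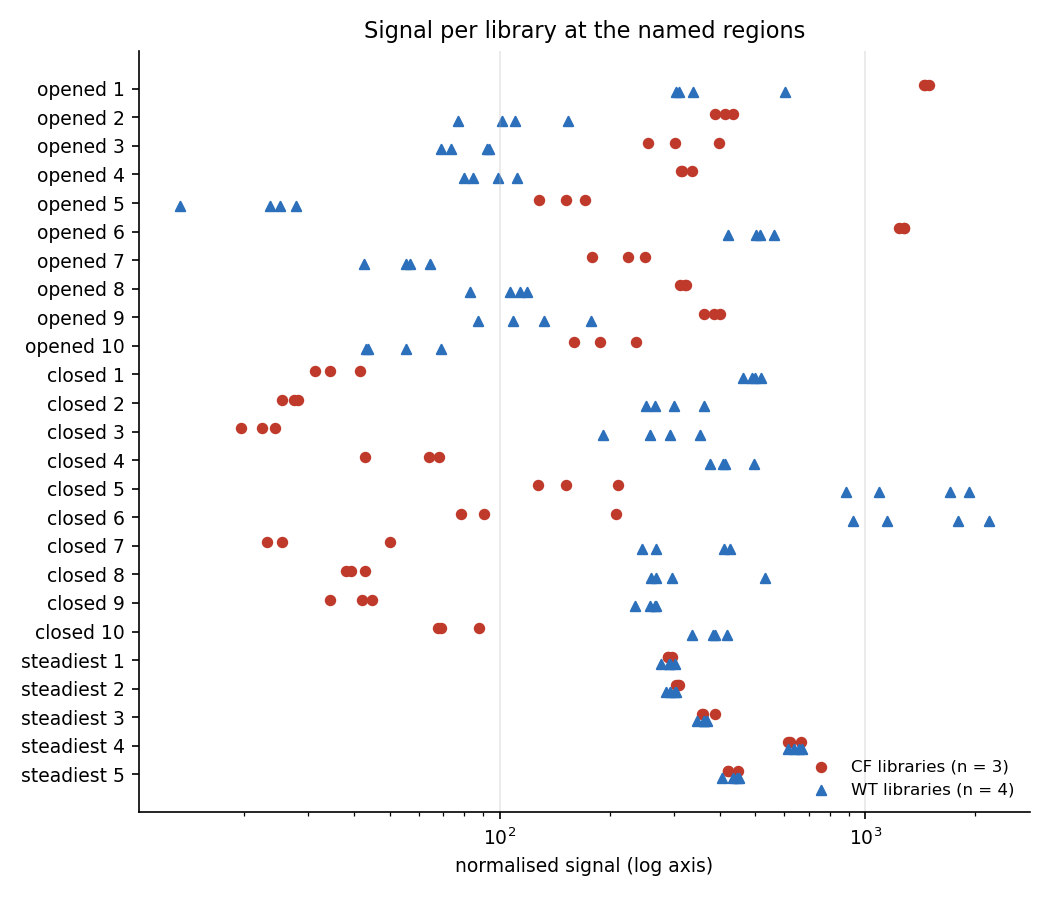
Normalised signal (log axis) of each CF library (red circles, n = 3) and each WT library (blue triangles, n = 4) at the 10 leading opened, the 10 leading closed and the 5 steadiest shared regions, numbered in order of adjusted p or of spread. CF and WT libraries do not overlap in the opened and closed regions, which were named by a rule that required it, and they coincide in the steadiest, chosen for their small spread, where the first runs from 277 to 302.

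Some members changed by less than 2-fold with very tight libraries. At GL896904:29714243-29715098 the CF signals were 129, 134 and 137 and the WT signals 257, 268, 265 and 278. The fall was 1.00 on the log2 scale after rounding, just inside the threshold, with an adjusted p of 0.00198 in limma. At GL897265:281292-282667 the signals were 320, 339 and 339 in CF and 625, 664, 597 and 672 in WT, a change of −0.94 ± 0.17. At GL897108:1961609-1963097 the signals were 372, 357 and 392 in CF and 186, 191, 200 and 193 in WT, a change of 0.95 ± 0.18 in the other direction. CF libraries were clear of WT libraries at each of these regions, which passed the adjusted p and were left uncalled by the threshold on size. Without the mean trend in limma none of the 6 regions of this kind named here passed, with adjusted p from 0.0508 to 0.0798. The same held at GL896960:8347578-8349058 and GL896904:2188774-2190266, with rises of 0.90 and 0.95, and at GL896923:13604092-13605565, with a change of −0.99. The falls at GL896904:29714243-29715098 and at GL896923:13604092-13605565 no longer passed when each scaffold was centred on its own median, with adjusted p of 0.0870 and 0.104 in limma, or when libraries were scaled by size alone, with 0.0511 and 0.0608.

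The steadiest strong members marked the other end of the grade. At GL896898:823422-824756 the signals were 289, 288 and 296 in CF and 302, 291, 277 and 293 in WT. The difference was 0.00 with a 95% confidence interval from −0.37 to 0.38 on the log2 scale. The other 4 steadiest regions had differences between −0.02 and 0.06. In limma the standard error of a region also takes in the spread of other regions of like signal, so the interval is wider than these 7 values alone would give.

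The 5 strongest members were not called, though their means differed by more than 2-fold. Of these, 4 lay on the scaffold GL897838 and 1 at GL896904:24071810-24072324. The strongest, at GL897838:4343-5697, had signals of 192026, 142728 and 156114 in CF and of 317145, 332642, 770509 and 644994 in WT. All WT libraries were above all CF libraries, but they differed among themselves by more than 2-fold, and the change of −1.56 ± 0.66 had an adjusted p of 0.134 in limma. Over the 5 regions the changes ran from −1.56 to −1.39 and the adjusted p from 0.0514 to 0.153.

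The region on GL896904 moved with those on GL897838. Its signal was 37.8% to 42.3% of that of the strongest region in every library. Of the 140 members outside GL897838 with a mean log2 signal above 10, it was the only 1 whose deviations stayed within 0.25 of those of the scaffold in each library. With no limit on signal, 5 members, this one included, and 2 other regions did so. Whether reads are shared between similar sequences at these places was not tested, so the value of the region on GL896904 is uncertain.

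Reads on shared regions made up 63.6%, 62.4% and 62.1% of the reads in regions in CF1 to CF3, and 66.8%, 65.9%, 73.3% and 69.5% in WT1 to WT4. The groups did not overlap. The means were 62.7% ± 0.778 (SD, n = 3) and 68.9% ± 3.32 (SD, n = 4). No test is given, since membership was set by peaks called in the same libraries. All 5 regions of GL897838 are members, and this scaffold alone held 7.15% to 8.97% of the reads of CF libraries and 13.0% to 22.6% of those of WT libraries. Without it the shares were 59.4% ± 0.621 and 62.1% ± 2.39, and the difference of the means was −2.65 in place of −6.16 percentage points.

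The margin of members over other regions within a library, which does not depend on a factor per library, draws on the same peak calls and is likewise given as a description. The median log2 signal of members exceeded that of the other regions by 2.13, 2.35 and 2.19 in CF and by 2.37, 2.44, 2.60 and 2.46 in WT. The means were 2.23 ± 0.113 (SD, n = 3) and 2.47 ± 0.0964 (SD, n = 4). With all libraries thinned to equal reads the difference of the means was −0.20. This measure was chosen after the data were seen.

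**Figure D5:**
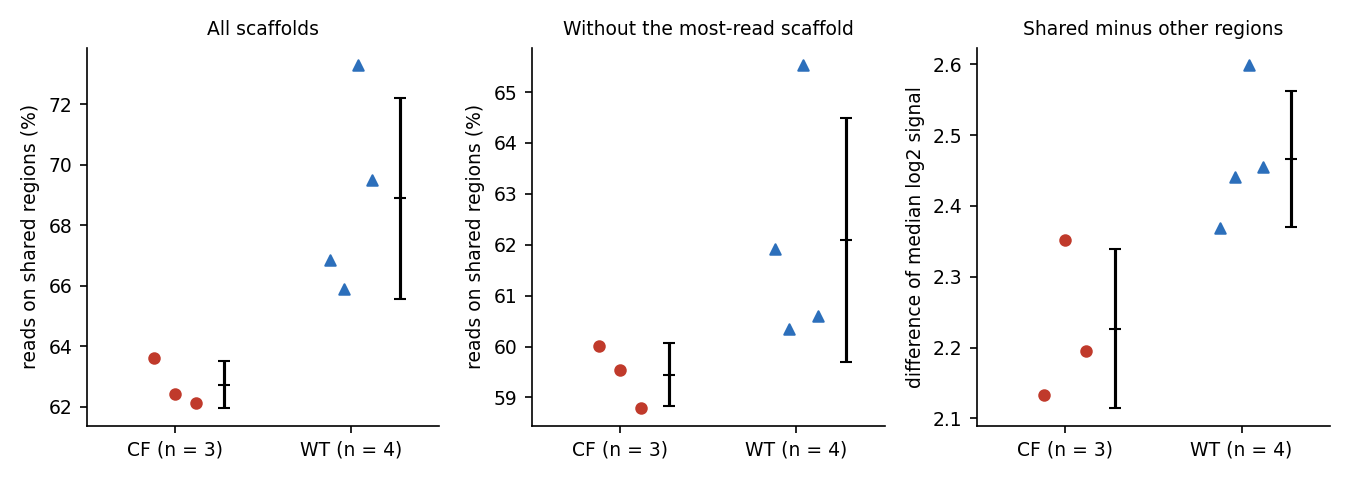
Share of reads on shared regions with all scaffolds (left) and without GL897838 (middle), and the median log2 signal of shared minus other regions (right), for each CF (red circles, n = 3) and WT (blue triangles, n = 4) library. Black bars give the mean and SD and the vertical axes do not start at 0. CF and WT libraries do not overlap in any of the panels.

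The frequency of calls among members changed along the range of signal. With members ordered by mean log2 signal and cut into 5 equal bins, closed regions made up 8.05%, 11.8%, 8.88%, 4.82% and 1.81% from the weakest to the strongest. Opened regions made up 0.425%, 1.53%, 1.55%, 0.786% and 0.170%. The median standard error fell along the same order, from 0.39 in the weakest bin to 0.20 in the strongest. The strongest bin had the fewest calls in both directions and the smallest error, and 86.9% of it was bounded within 2-fold, against 23.2% of the weakest. The order by signal in 1 genotype carries the change itself, and by WT signal the share of closed members was highest, at 11.3%, in the middle bin. By width, closed members fell from 10.3% in the second narrowest of 5 bins to 3.90% in the widest.

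Peak enrichment moved with the signal at called members. The enrichment comes from the authors' peak caller and from the same reads, so it is a second reading of the same libraries and no replication. Among closed members, 688 (41.4%) had a lower enrichment in every CF list than in any WT list, against 8.18% of all regions with 7 lists, and 3 had the reverse. Among opened members, 107 (51.0%) had a higher enrichment in every CF list, against 4.8% of all regions with 7 lists, and 1 had the reverse. The median log2 difference in enrichment was −0.49 at closed and 0.50 at opened members, while the median log2 change in signal was −1.34 and 1.25. Over all members the median enrichment per list came to 7.90 ± 0.343 over the CF lists (SD, n = 3) and 8.04 ± 0.792 over the WT lists (SD, n = 4). The groups overlapped, and no test is given, since members were required to have these peaks.

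Summits, the points of highest pileup in a peak, were compared between the lists of each genotype. All CF summits lay on 1 side of all WT summits, with at least 100 bp between the nearest of them, in 129 members (0.548%), against 0.632% of all regions with 7 lists. Smaller shifts, and shifts with overlapping lists, are not counted by this rule. Of the 129 members, 16 were closed and 1 opened. In the wider regions with 7 lists the share was 1.86%. The widest gap between the nearest CF and WT summits, 923 bp, was at GL896899:20057290-20058723, and the next, 785 bp, at GL897006:5068852-5070116, and neither was called for signal, with log2 changes of −0.61 and −0.62. The peaks themselves covered a median of 644, 651 and 597 bp of a member in the CF lists and of 576, 413, 668 and 547 bp in the WT lists. The groups overlapped, with means of 631 ± 29.4 (SD, n = 3) and 551 ± 105 bp (SD, n = 4). For the same reason as with enrichment, no test is given.

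Neighbouring members shared part of their change. Across pairs of consecutive members the correlation of the log2 change was 0.51 for the 1004 pairs within 2 kb, 0.22 for pairs 2 to 10 kb apart, 0.15 at 10 to 50 kb and 0.09 beyond. These values are across regions, which share libraries and are not replicates. Of 545 members within 10 kb of a closed member, 98 (18.0%) were closed and 1 was opened, beside 7.07% closed and 0.892% opened over all members and 6.26% and 4.31% over all regions. Of 55 members within 10 kb of an opened member, 6 (10.9%) were opened and 1 was closed, against the same shares. The longest run of consecutive closed members held 6, at GL896923:10464654-10736903, with changes from −2.25 to −1.09, and no run of opened members exceeded 2.

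On 16 scaffolds the regions were lower in CF as a whole. These scaffolds were picked from the same comparison, by a median shift below −0.3 over at least 40 regions with a mean log2 signal above 5, so their lower signal and their higher share of closed members are no finding. They carried 1644 members (6.99%), of which 318 (19.3%) were closed and 3 opened, with a median change of −0.62. On all other scaffolds 1345 members (6.14%) were closed and the median change was −0.14. The longest run of closed members and closed region 4 lie on such scaffolds. Outside them, of the 135 scaffolds with at least 50 members, 128 had more closed than opened members and 4 the reverse. This count restates the split of calls over the members under the deposited scaling and is no separate support for it.

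Taken over the members alone, correlations between CF libraries were the highest, while those between WT libraries overlapped those between genotypes. Across the other regions none of these ranges overlapped. Pearson correlations of log2 signal across members were 0.93 to 0.95 between CF libraries, 0.83 to 0.91 between WT libraries and 0.78 to 0.85 between genotypes, compared with 0.79 to 0.83, 0.56 to 0.74 and 0.45 to 0.51 across the other regions. The first principal component of the members carried 41.3% of the variance and placed the CF libraries between 42.6 and 51.8 and the WT libraries between −46.3 and −20.7. The next components carried 21.9% and 14.8% and mainly set WT libraries apart from each other.

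The regions next to the width limit showed small changes. The widest members, both 1499 bp, had changes of −0.16 and 0.22, and the narrowest regions left out, both 1500 bp, had changes of 0.16 and −0.30, with none of the 4 called. Over the whole class of 1500 bp or more with 7 lists, 2.67% closed, 0.746% opened and 84.3% were bounded within 2-fold, against 7.07%, 0.892% and 57.3% of members.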

How the data were processed

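ATAC-seq libraries of 3 CF and 4 WT ferret PDE cultures were compared, grouped by the genotype in the labels. The authors used Trimmomatic for trimming, Bowtie 2 for alignment to MusPutFur1.0 and MACS2 to call peaks per library, and built consensus regions with DiffBind. Whether read ends were shifted for the transposase offset is not given in the sources used here. A normalised signal per region and library forms the deposited matrix, and each value equalled a whole number of reads times one factor per library for 100% of values, within 0.001 reads. The deposited peak lists give for each peak its score, its enrichment as a fold ratio, and −log10 of its p-value and q-value. No comparison columns of the authors were used, and positions are counted from 1.

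In R 4.3.3, limma 3.58.1 was fitted with genotype as the only term and a mean trend on log2(signal + 1) over 95129 regions. The pseudocount understates changes of weak regions. Peak width and enrichment per list are given as means with SD, without a test. The named regions are the 10 opened and 10 closed members of smallest adjusted p with separated libraries, the 5 strongest, the 5 steadiest among the 10% of highest signal, 3 higher and 3 lower with changes under 2-fold, and those nearest the width limit; the 2 members with the widest summit gaps were chosen after their values were seen. Members and rules were chosen with earlier results of these data known. Alternatives were other scalings, pseudocounts, read minimums, thresholds and membership rules, count tests of the recovered reads with edgeR 4.0.16 or DESeq2 1.42.0, and each library left out. The test was tried on simulated data. No sequence or annotation of this assembly was used here. Python 3.11.15 was used.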

Additional observations from a re-analysis of the deposited data

Results flagged for a closer look

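Of 47 values searched for a WT library far from the other 3, 1 stood out, and chance gives about 1 in 20. At the first opened region, GL896948:3123676-3124106, library WT1 had a log2 signal of 9.24 while the other WT libraries lay between 8.25 and 8.41. The region stayed called without that library.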

How the results depend on the processing

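The median change of members was negative with the deposited scaling and positive under library size alone (0.19), upper-quartile scaling (0.017) and centring on the members (0.059), and was −0.018 under cyclic loess. Opened members numbered 755, 420, 490 and 355 under these 4, and 85 without a mean trend, 4 with limma treat against a log2 change of 1, 1 past a log2 change of 2 and 383 with no fold threshold. Closed members numbered 695 under library size, 1076 under upper quartile, 965 when centred, 924 without a mean trend, 96 with treat, 135 past 2 and 2509 with no fold threshold. Other membership rules also changed the number of members. With peaks over at least 50% of the region in each list, 26 (0.249%) of 10432 opened and 567 (5.44%) closed. With a −log10 q of at least 5 in each list, 84 (0.515%) of 16324 opened and 1090 (6.68%) closed. With equal numbers of peaks per list, 153 (0.805%) of 19005 opened and 1022 (5.38%) closed. With at least 6 lists, 594 (1.73%) of 34434 opened and 2324 (6.75%) closed. Over all regions 4.31% opened and 6.26% closed. Members past the adjusted p at any size fell to 1009 without a mean trend, where none of the 6 named regions with a change under 2-fold passed.

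Leaving out 1 library gave 117 to 263 opened members, 1158 to 1851 closed, 1404 to 3340 at any size and medians from −0.19 to −0.11. Without CF1, CF2 and CF3 the opened members were 133, 117 and 132 and those at any size 1475, 1688 and 1404. The share of reads on members differed by −4.52 percentage points with members under 1000 bp. Same-numbered CF and WT columns of the matrix deviated together with correlations of 0.23, 0.27 and −0.06. These values cannot decide whether cultures were paired, since the columns followed the lists in reverse order of number. A replicate block by column number gave 232 opened and 1775 closed members. edgeR gave 221 and 1688 and DESeq2 206 and 1862. The 10 leading closed regions passed under every alternative fitted, and the opened ones under all but treat, where 6 of the 10 did not. Regions with few reads and the shallowest library limit what could be called.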
